A study of Homo sapiens with 18 samples.

Results

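The sites described here are the H3K4me3 sites of V16D cells that lie outside promoters and that the authors listed as different between V16D/H19 and V16D/CTL. They are the 275 rows, of 1857 in the deposited H3K4me3 table, whose annotation does not begin with the word promoter. That label reached 5 kb from a transcript start, so the nearest of the 275 lay 5015 bases from a start, while the 19 rows labelled as promoter at 4 to 5 kb lay up to 4990 bases away. V16D is a castration-resistant prostate cancer cell line derived from LNCaP. Cells received a control lentiviral vector (V16D/CTL) or a lentiviral vector that expresses H19, a long non-coding RNA (V16D/H19), in 3 biological replicates per group, and 2 histone marks were mapped by chromatin immunoprecipitation sequencing with an input library for each replicate. The comparison asks where in the genome these marks differ when H19 is overexpressed. All samples are of this 1 cell line.

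H3K4me3, trimethylation of lysine 4 of histone H3, is deposited by SET1 and MLL complexes around transcription starts, where it is strongest at CpG-rich promoters of active genes. Outside annotated promoters it is known at alternative or unannotated starts, along the edges of strong promoters that spread into the gene, at active RNA polymerase III genes such as tRNA genes, and more weakly at enhancers. H3K27me3 is the mark of the Polycomb repressive complex PRC2, and sites that carry both marks are called bivalent.

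The deposited files hold no read depth, and the depths that the study lists for its libraries were not used here. The 6 H3K4me3 lists held between 20048 and 21934 peaks. H3K4me3 peaks within 1 kb of a RefSeq start were present in all 6 libraries at 15 of 18 luminal prostate genes and at 9 of 15 neuroendocrine genes for which a start was at hand. No library had a peak within 1 kb of the start of H19, so this mark gives no check of the overexpression itself. Merging the 6 lists gave 20708 regions with a peak in at least 2 libraries, of which 9.34% overlapped a row of the table.

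The concentrations quoted below are the authors' mean per group, on a log2 scale of normalized read counts averaged over the group. They belong to the contrast that put a row in the table, so they are a description and no test was run on them. The table holds 1 value per group, so the spread between replicates is shown through the peak fold over input of each library, a linear ratio at the strongest peak that overlaps the site.

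Of the 275 sites, 130 were distal intergenic, 85 intronic, 44 exonic, 11 in a 3′ UTR, 3 just downstream of a gene and 2 in a 5′ UTR. They carried 221 gene symbols. Each symbol is that of the annotated transcript start, so a site named by a gene need not lie in it. The median distance to the annotated start was 22830 bases, with a range from 5015 to 2346847. The sites were narrower and weaker than the promoter rows of the same table. Their median width was 1297 bases against 2772, and their median concentration was 5.93 in V16D/CTL against 5.32 in V16D/H19, where promoter rows had 8.93 and 8.68.

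H3K4me3 was lower in V16D/H19 at 212 of the 275 sites (77.1%) and higher at 63. The promoter rows had a like split, with 1200 of 1582 (75.9%) lower. How the concentrations were normalized is not given in the sources used here, and a shift between the groups common to all sites would move these shares, above all among strong sites, whose differences were small. The sizes differed: 49.8% of the non-promoter sites, but 16.3% of the promoter rows, differed by at least 1 on the log2 concentration scale. The rows were chosen on significance, so these sizes are not comparable as effects. The direction also varied with strength. Ordered by mean concentration, 61.4% of the weakest 70 sites were lower, then 75.0% and 77.9% of the next 68 and 68, and 94.2% of the strongest 69. The strongest sites of the group were therefore nearly all on the lower side, and the higher sites were mostly weak, with a median concentration of 3.47 in V16D/CTL against 5.04 in V16D/H19. The promoter rows had the same order. At a mean concentration of at least 7, 86.3% of them were lower, next to 91.9% of the sites. Under 5 it was 44.7% and 64.9%. By annotation class the lower share ran from 75.0% in exons to 76.9% in intergenic DNA among the 3 large classes, and it was 10 of 11 in 3′ UTRs.

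**Figure D1:**
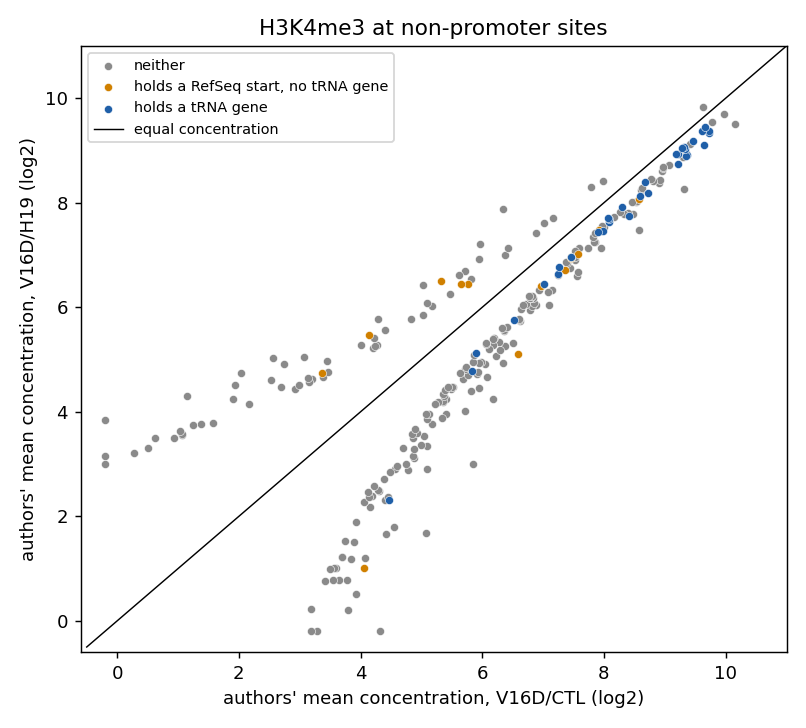
Authors' mean H3K4me3 concentration (log2) in V16D/CTL on the horizontal and V16D/H19 on the vertical axis for the 275 sites, each point 1 site, with the line of equal concentration. The 32 sites that hold a tRNA gene all lie below the line, most of them at the strong end, and the gap along the line is empty because the table lists only sites that the authors called different.

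The sequences that follow show what kind of DNA some of these sites hold. The list of RefSeq starts lacked some genes, such as DNAJC1 and ACTB, so counts of starts may be too low. A listed start lay inside 19 of the 254 sites that could be looked up. The annotation of the table had assigned these sites to another, more distant transcript. The 30 bases before 6 of these starts are given 5′ to 3′ on the strand of the gene, from RefSeq on GRCh38.p14, with CpG dinucleotides in capitals. RARB, a retinoic acid receptor gene, starts at chr3:24829321 on the plus strand, DMBX1, a homeobox gene, at chr1:46489836 (plus), PRRT1B at chr9:131545523 (plus) in a site annotated to UCK1, LINC01945 at chr2:132037900 (minus), USP54 at chr10:73601621 (minus) and the uncharacterised LOC105375334 at chr7:65269374 (plus) in the site annotated to ZNF92.
RARB: gggCGgggCGcagCGagcCGggctccCGct
DMBX1: tttaaaactccagcccaggcccCGtCGCGc
PRRT1B: ttattaacCGgcCGcaCGgcaggcaccagg
LINC01945: caggggcCGCGgccagcCGgaCGctgcagc
LOC105375334: gagggCGtggcttccagCGtttggCGCGgc
USP54: tctgaaagggatgagctcatccttctaacc
RARB had 5 CpG dinucleotides in these 30 bases and USP54 had 0. Over the 300 bases around the start, the 24 windows inside the sites had a median of 18.5 CpG, from 2 at USP54 to 45 at a start annotated to SEMA6B, against a median of 14 over all 35116 RefSeq windows. The GC box GGGCGG, read on both strands, was present in 45.8% of these windows and in 45.0% of all windows, and the TATA box TATAAA in 16.7% and 11.5%. A match of letters describes the window and shows no binding.

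Of the 19 sites that hold such a start, 11 had a mean concentration of at least 7. At RARB the authors' mean concentration was 8.57 in V16D/CTL against 8.07 in V16D/H19. Its peak folds were 34.9, 57.3 and 36.3 in V16D/CTL against 39.0, 35.4 and 33.2 in V16D/H19. By peak fold the 2 groups at RARB overlapped. The site with the start of LOC105375334, annotated to the zinc finger gene ZNF92, fell from a concentration of 6.59 to 5.11, and its peak folds of 22.7, 18.4 and 25.2 in V16D/CTL all lay above those of 9.77, 9.82 and 13.0 in V16D/H19. In the opposite direction, the USP54 site had 3.37 in V16D/CTL against 4.75 in V16D/H19. Without tRNA genes, 15 sites held a start, 10 of them lower and 5 higher.

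Many of the strong sites shared the presence of tRNA genes, a grouping chosen after the values were seen. RefSeq places 58 tRNA genes in 32 of the 275 sites, and all 32 were lower in V16D/H19. Strong sites were mostly lower in any case. At a mean concentration of at least 7 there were 26 sites with a tRNA gene. Of the 60 equally strong sites without one, 53 (88.3%) were also lower. All 23 promoter rows with a tRNA gene were also on the lower side. The 58 genes serve 18 kinds of tRNA, led by 10 for proline, 6 each for leucine and lysine and 5 for alanine. Over all merged H3K4me3 regions 176 held a tRNA gene (0.850%), and the table listed 55 of these (31.3%), beside 9.34% of all regions. These 2 shares were not matched for strength. The median concentration of the 32 sites was 8.64 in V16D/CTL against 8.16 in V16D/H19, and the median difference was -0.45, within a range of -2.16 to -0.22.

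Of the 32 sites, 19 lay within 100 kb of another of the 275 sites and 13 stood alone, and 16 held 1 tRNA gene. Chromosome 6 had 11 of the sites, some annotated to the histone gene HIST1H4H, with 20 tRNA genes. Chromosome 16 had 5 sites with 11 tRNA genes. In chr16:3156797-3192199, 4 sites annotated to CASP16P and OR1F1 held 9 tRNA genes and were all lower. The site with the most tRNA genes there, annotated to OR1F1 and 4658 bases wide, went from 9.35 to 8.90. The chromosome 6 site annotated to BTN3A2, chr6:26326495-26332950, held 4 tRNA genes and went from 9.64 to 9.10.

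Library by library, the tRNA sites were far less separated than their concentrations. At the OR1F1 site the peak folds were 27.2, 28.6 and 24.3 in V16D/CTL against 28.0, 29.3 and 23.8 in V16D/H19, which overlap throughout. At BTN3A2 they were 38.9, 34.0 and 20.1 in V16D/CTL against 27.5, 23.8 and 21.0 in V16D/H19, again with overlap. The site near CASP16P at chr16:3174685-3175742, which holds a lysine tRNA gene, was different: its 17.5, 17.6 and 12 in V16D/CTL lay above its 5.80, 9.64 and 8.82 in V16D/H19. All 6 libraries had a peak at 31 of the 32 sites. Among these 31, the mean log2 peak fold, with each library centred on its median over all regions, was lower in V16D/H19 at 24, with a median difference of -0.14, and the 3 V16D/H19 values lay below all 3 V16D/CTL values at 4. Without centring the number lower was 21. Over all 15811 regions with a peak in all 6 libraries 52.0% were lower by the same measure, with a median difference of -0.02, and in 6.4% the V16D/H19 values lay below all V16D/CTL values. For all 170 regions with a tRNA gene called in every library, 99 were lower.

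Outside the tRNA genes, the widest site lay in KDM6A, which encodes the H3K27 demethylase UTX. It covered 8889 bases of an intron at chrX:44948158-44957046, 74442 bases from the annotated start. The authors' mean concentration was 9.31 in V16D/CTL against 8.27 in V16D/H19. The peak folds of 29.1, 23.3 and 27 in V16D/CTL were all more than those of 10.7, 12.6 and 10.8 in V16D/H19. A second KDM6A site at chrX:44957769-44960407 went from 5.74 to 4.85, with peaks of 7.96, 5.6 and 4.92 in the 3 V16D/CTL libraries and a peak of 4.79 in 1 V16D/H19 library. No promoter row of the table carried the KDM6A symbol. Other sites annotated to chromatin modifiers were SMARCC1, a SWI/SNF subunit (5.13 to 3.96), CHD6, a chromatin remodeller (8.97 to 8.69), and ARID3B, a DNA-binding protein (7.99 to 8.42). In that list 4 of 5 sites were lower.

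A further group of sites lay beside promoters that were themselves in the table. Within 10 kb of a promoter row there were 16 sites, and all 16 had the direction of that promoter row, all lower. Several of them shared a promoter row. With 77.1% of all sites and 75.9% of promoter rows lower, agreement is frequent by these shares alone. At 14 of the 16 the difference was larger at the site than at the promoter, with medians of -1.18 and -0.54 on the log2 concentration scale. All rows were chosen on significance, so these sizes are not comparable as effects. Among all sites with a mean concentration under 5, 98.2% differed by at least 1. Among promoter rows at 7 or more, 0.77% did. At PLA2G1B and SLC35A3, where the promoter row was the weaker one, the promoter difference was the larger. Whether sites changed more than promoters of equal strength was not tested. Neighbouring rows share chromatin and often a single domain, so these are not independent observations.

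EPHA6, which encodes an ephrin receptor that guides axons, is an example of such an edge. Its promoter row went from 11.29 to 10.59, and the site that begins 177 bases beyond it, chr3:96822943-96824032 in the intron, from 5.08 to 1.69. All 3 V16D/CTL libraries had a peak there, with folds of 5.24, 5.98 and 5.87, and no V16D/H19 library had one. The next site in the same intron, chr3:96824598-96825405, went from 5.04 to 3.54, with V16D/CTL peaks of 6.04, 5.66 and 2.72 and again none in V16D/H19. ACSL3, a fatty acid activating enzyme, had the same layout. Its promoter row went from 11.18 to 10.62, and the intronic site 106 bases beyond it from 6.18 to 4.25, with peaks of 7.63, 5.24 and 5.27 in V16D/CTL, of 4.82 and 3.89 in V16D/H19 replicates 1 and 2, and none in replicate 3. The second ACSL3 site went from 3.89 to 1.5.

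PTGFR, the prostaglandin F receptor, carried 3 of the sites, the most of any gene symbol, and its promoter row went from 10.80 to 10.01. The site nearest the promoter went from 5.92 to 4.73. There the V16D/CTL folds of 6.18, 8.10 and 6.79 lay above the V16D/H19 folds of 4.84, 5.82 and 4.42. The next went from 4.30 to 2.48 and the farthest, 56992 bases from the start, from 7.53 to 6.91, where the folds of 10.1, 15.0 and 14.3 in V16D/CTL overlapped those of 14.7, 7.78 and 6.24 in V16D/H19. Most sites and promoter rows of the table were lower, which by itself makes agreement frequent. Across all 41 sites whose gene also had a promoter row, 36 moved in the direction of that row. The 5 that did not were annotated to CASZ1, PPFIA2, PRKD1, ACACA and SCHLAP1. At PRKD1, a kinase gene, the promoter row went from 10.69 to 10.87. The site annotated to PRKD1 lay in an intron of another transcript, at -78602 bases from the annotated start. It went from 3.77 to 0.78, with peaks in 2 V16D/CTL libraries and no V16D/H19 library.

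Sites also lay near each other. With gaps of up to 100 kb, 48 sites formed 19 groups. With 77.1% of all sites lower, groups of a single direction are frequent by that share alone, and 18 of the 19 had one. The exception was ALOX12B, with the site of highest V16D/CTL concentration (10.15 against 9.50 in V16D/H19) beside a narrow one that went from 1.14 to 4.30 and had a peak in 1 V16D/H19 library. Of the 19 groups 8 held a tRNA gene.

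Peak calls and concentrations come from the same reads. A peak was present at 239, 233 and 236 of the 275 sites in V16D/CTL (236 ± 3.0, SD, n = 3) and at 221, 229 and 208 in V16D/H19 (219 ± 10.6, SD, n = 3). All 6 libraries had a peak at 175 sites, 149 lower and 26 higher. The number of libraries with a peak differed between the groups at 97 sites, and at all 97 it was larger in the group with the larger concentration. All 3 V16D/CTL and no V16D/H19 libraries had a peak at 18 sites, and the reverse held at 12. Over all merged regions these patterns made up 0.41% and 0.903%, and since the same contrast chose the sites, nothing further can be read from the comparison. Without V16D/H19 replicate 2 the first count was 28. No library had a peak at 2 sites, annotated to MRPS18A and ASAP1.

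**Figure D2:**
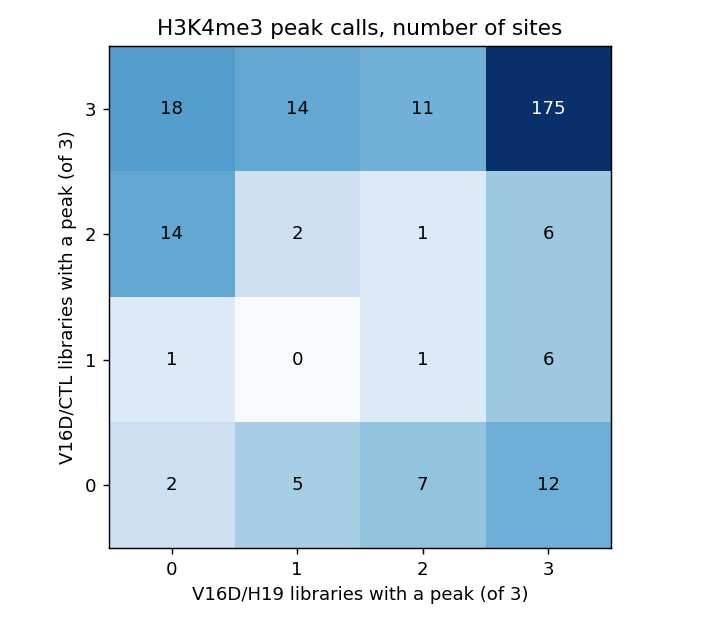
Number of the 275 sites by how many of the 3 V16D/CTL libraries (vertical) and of the 3 V16D/H19 libraries (horizontal) had an H3K4me3 peak there, with darker shading for more sites on a log scale. Most sites, 175, had a peak in all 6 libraries, 18 had one in all V16D/CTL and no V16D/H19 libraries and 12 the reverse.

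The sites with the lowest value of the table, a concentration of -0.20 that stands for no signal, numbered 6. V16D/H19 had this value near ACP6 (4.32 in V16D/CTL), near LINC01324 (3.18) and at a site without a symbol on chromosome 3 (3.29). V16D/CTL had it in introns of PUM3 (3.16 in V16D/H19) and MAP7D1 (3.01) and at a site without a symbol on chromosome 2 (3.85). Each had peaks in at most 2 libraries of the higher group, so these extremes rest on weak sites.

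The lower sites with peaks in all V16D/CTL libraries and none in V16D/H19 included LINC00708 (3.93 to 0.51), the intronic site annotated to MIR549A (3.79 to 0.20) and BRINP3, a neuronal gene (4.08 to 1.21). Their peak folds in V16D/CTL were modest. They were 4.36, 3.49 and 4.92 at MIR549A and 8.02, 4.35 and 3.39 at BRINP3. The higher sites with the reverse pattern included an exonic site of XKR6 (2.04 to 4.74), where the V16D/H19 folds were 5.08, 9.76 and 5.02, and the site upstream of the protocadherin gene PCDHB1 (1.58 to 3.79), where they were 3.99, 6.33 and 4.50.

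**Figure D3:**
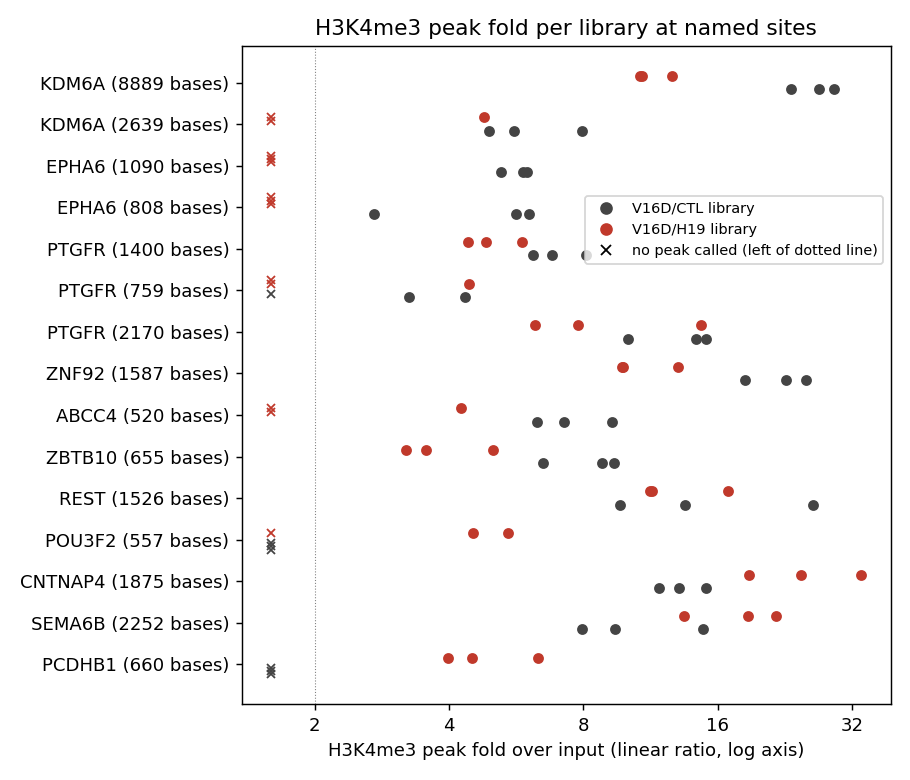
H3K4me3 peak fold over input (log axis) at 15 named sites, with 1 point per V16D/CTL or V16D/H19 library and a cross left of the dotted line where a library had no peak. At the wide KDM6A site and at ZNF92 every V16D/CTL value lies above every V16D/H19 value, at REST and the widest PTGFR site the groups overlap, and at CNTNAP4 every V16D/H19 value lies above every V16D/CTL value.

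Among gene groups of interest for prostate and neuroendocrine identity, few members had a non-promoter site. Of 29 androgen response and luminal genes 2 did, and both were lower. ABCC4, a multidrug and prostaglandin transporter, went from 4.41 to 2.32, with peaks of 9.27, 6.28 and 7.25 in V16D/CTL and of 4.26 in 1 V16D/H19 library. The site annotated to ZBTB10, a zinc finger repressor, lay 71961 bases from the annotated start and went from 5.71 to 4.02. Its folds of 9.39, 8.82 and 6.49 in V16D/CTL lay above 3.55, 3.20 and 5.03 in V16D/H19. The promoter row of ZBTB10 was also lower, from 10.96 to 10.47. Of 25 neuroendocrine genes 2 had a site, in opposite directions. The intergenic site annotated to REST, the repressor of neuronal genes, lay at -32371 bases from the annotated start. It went from 6.61 to 5.76, with folds of 9.67, 26.2 and 13.5 in V16D/CTL that overlapped 16.8, 11.4 and 11.3 in V16D/H19. The site annotated to POU3F2, the neural transcription factor BRN2, lay in intergenic DNA far upstream, at -69791 bases from the annotated start. It went from 1.07 to 3.57, with a peak in 2 V16D/H19 libraries (4.52 and 5.41) and in no V16D/CTL library. The study named several of these genes from the same libraries, so they are not independent evidence.

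Sites annotated to neural adhesion and axon guidance genes numbered 5, with 2 lower, both in EPHA6, and 3 higher. The 3 higher sites lay far upstream of the annotated transcript start, at -40728 bases (CNTNAP4), -20014 (SEMA6B) and -120146 (OPCML). The values below belong to these sites and not to the genes. CNTNAP4, a contactin-associated adhesion protein of neurons, went from 7.17 to 7.70, and its V16D/H19 folds of 24.6, 18.8 and 33.5 lay above the V16D/CTL folds of 13.1, 11.8 and 15.1. SEMA6B, a semaphorin, went from 5.33 to 6.50 with overlapping folds of 7.96, 14.8 and 9.41 in V16D/CTL against 13.4, 21.6 and 18.7 in V16D/H19. OPCML, a neural adhesion molecule and known tumour suppressor, went from 6.89 to 7.42 by concentration, but its folds of 16.5, 23.1 and 11.3 in V16D/H19 spread on both sides of the 20.6, 18.1 and 21.1 in V16D/CTL.

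The other gene groups leaned to the lower side, like the whole set. Membrane transporters had 7 of 8 sites lower, with SLC12A7 the exception (5.62 to 6.62), zinc finger and BTB factors 6 of 7, with ZNF774 the exception (1.25 to 3.74), and phosphodiesterases and kinases 4 of 4. The sites of non-coding RNA genes were lower at 23 of 31. The cytoskeletal actin genes ACTB (8.47 to 7.79) and ACTG1 (9.07 to 8.72) were both lower, cadherins had 2 of 3 lower, and the only ion channel site was KCNN2 (5.10 to 3.35). With 77.1% of all sites lower, these counts do not set any group apart.

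One mature miRNA lay inside a site. The intronic site of SLC7A5, which encodes the amino acid transporter LAT1, went from 6.08 to 4.66, with folds of 9.04, 8.37 and 6.45 in V16D/CTL against 4.95, 5.90 and 4.36 in V16D/H19, which do not overlap. It spans hsa-miR-11401 at chr16:87853906-87853925 on the plus strand, given here from RefSeq with its seed in capitals because it is the only miRNA that the sites cover. No expression was measured.
hsa-miR-11401: uCACGUCUgcggcugucacg

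Peak folds gave the same side as the concentrations at 159 of the 175 sites with a peak in all 6 libraries. The V16D/H19 folds lay below all V16D/CTL folds at 48 of the 175 and above them all at 12, next to 6.4% and 5.58% of all regions with a peak in every library. By peak fold 135 of the 175 (77.1%) were lower in V16D/H19 with centring and 129 without. Both measures come from the same 6 libraries.

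The strongest sites on each side had small differences. Among the lower ones, the exonic site annotated to NPTX1, a neuronal pentraxin, went from 9.77 to 9.54, and its folds of 83.8, 50.9 and 44.8 in V16D/CTL overlapped 41.0, 49.8 and 44.0 in V16D/H19. The strong ALOX12B site, by contrast, had 60.8, 52.4 and 37.4 in V16D/CTL, all above its 35.4, 30.8 and 27.4 in V16D/H19. PCDH1, a protocadherin gene, went from 9.22 to 8.94 by concentration while its folds were 48.6, 27.3 and 46.6 in V16D/CTL against 43.9, 57.9 and 66.3 in V16D/H19, so the 2 measures had opposite sides. Among the higher ones, XPO7, a nuclear export factor, went from 9.63 to 9.83 with folds of 34.0, 75.1 and 54.7 in V16D/CTL that overlapped 87.8, 47.3 and 52.1 in V16D/H19. DUSP26, a phosphatase, went from 7.78 to 8.31 and had 26.1, 20.4 and 27.3 in V16D/CTL, all below its 33.3, 27.5 and 37.0 in V16D/H19. PPFIA2, a liprin of synapses, showed a larger difference, from 6.34 to 7.88, and its folds of 3.27, 5.57 and 6.40 in V16D/CTL lay below 7.75, 11.3 and 12.5 in V16D/H19.

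**Figure D4:**
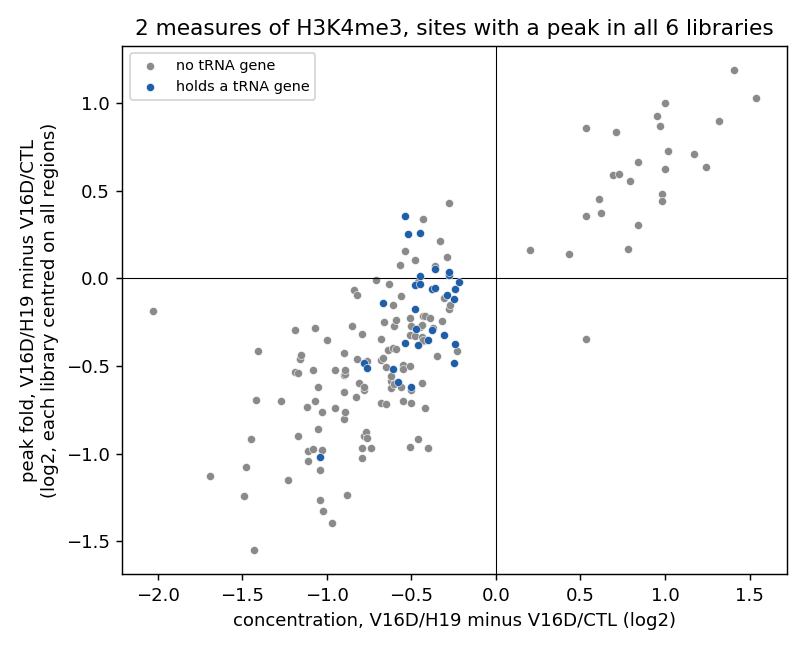
Difference between V16D/H19 and V16D/CTL in the authors' mean concentration (horizontal, log2) and in mean log2 peak fold, each library centred on all regions (vertical), for the 175 sites with a peak in all 6 libraries. The side is the same at 159 sites, and the 31 sites with a tRNA gene lie close to 0 on the vertical axis, with a median of -0.14.

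H3K27me3 was measured with another antibody and did not enter the choice of the sites. At 26 of the 275 sites at least 2 H3K27me3 libraries had a peak. By direction of H3K4me3, 22 of the 63 higher sites (34.9%) had such a peak and 4 of the 212 lower sites (1.89%). The 22 include the chromosome 7 sites described below, where sequence may be repeated. Whether others of the 22 also hold repeated sequence was not looked up. What repeated sequence adds to these shares was not tested. The promoter rows showed the same order, with 189 of 382 higher (49.5%) and 68 of 1200 lower (5.67%), and over all merged H3K4me3 regions the share was 9.89%. The higher sites were the weaker ones in H3K4me3, so the shares were also taken within ranges of mean concentration. Under 5, 11 of 39 higher and 3 of 72 lower sites had H3K27me3. From 5 to under 7 it was 8 of 17 and 1 of 61, and from 7 upward 3 of 7 and 0 of 79. The order was the same in all 3 ranges. H3K27me3 peaks were present at 23, 27 and 25 sites in V16D/CTL (25 ± 2.0, SD, n = 3) and at 22, 22 and 22 in V16D/H19. At no site did all 3 libraries of a group have a peak and none of the other.

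The H3K27me3 peak fold could be tested at the 10934 regions with a peak in all 6 libraries, with limma on the log2 scale. No region passed an adjusted p of 0.05 in either direction (0% of regions), and the lowest adjusted p was 0.27, while 915 regions had an unadjusted p under 0.05. Of the tested regions 19 overlapped a site, 17 of them a site with higher H3K4me3. None passed. By the centred difference 14 of the 19 were lower in V16D/H19, next to 52.9% of all tested regions, and the median log2 difference was -0.13, next to -0.01. Without centring, all V16D/H19 folds lay below all V16D/CTL folds at 6 of the 19 and above them at 1, next to 15.4% and 2.33% of all tested regions. In simulated data limma called 0 of 200 regions changed by 0.25 on the log2 scale. With 200 of 10934 regions changed, this test on peak folds therefore did not detect changes of the size seen at these sites. A larger share of changed regions was not simulated. The simulation does not show whether another measure of the same libraries could detect them.

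The region at SOX17, a transcription factor gene of endoderm, showed the lowest p of the 19. Its H3K27me3 folds were 5.22, 5.68 and 4.79 in V16D/CTL against 3.96, 4.51 and 4.16 in V16D/H19, a log2 difference of -0.27 (SE 0.09, n = 3 per group) with a limma adjusted p of 0.51. H3K4me3 at this exonic site was also lower, at 5.34 and 3.89. At LINC00708, where no V16D/H19 library had an H3K4me3 peak, H3K27me3 peaks touched the site in 3 V16D/CTL and 2 V16D/H19 libraries. Over the wider region the H3K27me3 folds were 3.25, 3.42 and 3.26 in V16D/CTL against 3.87, 3.46 and 3.64 in V16D/H19, a log2 difference of 0.19 (SE 0.08, n = 3 per group) with a limma adjusted p of 0.58. The authors' H3K27me3 table listed a row at SOX17, with a mean concentration of 9.21 in V16D/CTL against 8.70 in V16D/H19. That table overlapped 4 of the 275 sites (1.45%) and 4.61% of the promoter rows. All 4 of its rows were lower in V16D/H19, as were 91.5% of its 1140 rows. The other 3 were LINC01056 (8.12 to 7.60), RP11-331K15.1 (6.56 to 5.67) and LINC00290 (6.89 to 6.15), each with higher H3K4me3.

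Several higher sites with H3K27me3 lay very far from any transcript. On chromosome 7 the sites at chr7:60955424-60957141 and chr7:60991859-60992803 lay 2346847 and 2311185 bases from the annotated start, and one more at chr7:62376241-62377730 lay 926258 bases away. H3K4me3 went from 5.82 to 6.55, from 4.01 to 5.27 and from 4.23 to 5.26. All 6 H3K27me3 libraries had a peak at each of the 3. At the last of them the H3K27me3 folds of 6.52, 6.57 and 6.87 in V16D/CTL lay above those of 4.78, 5.71 and 5.65 in V16D/H19, with a limma adjusted p of 0.51. Sequence in such regions is often repeated, and how reads that map to several places were treated is not given in the sources used here.

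**Figure D5:**
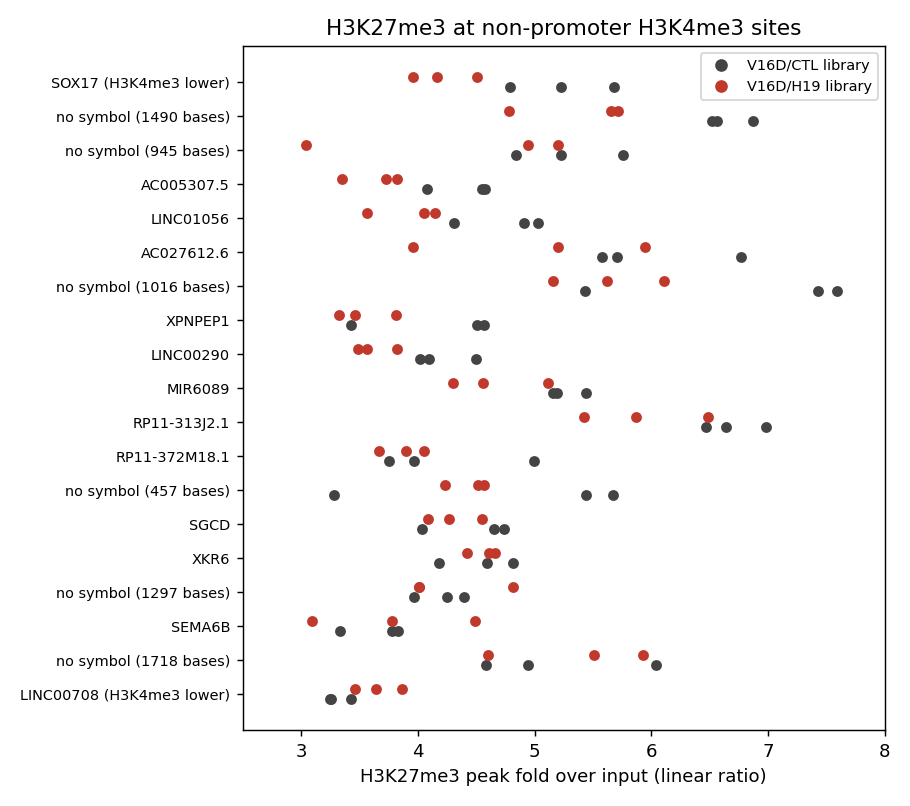
H3K27me3 peak fold over input in each library at the 19 tested regions that overlap a site, ordered by the difference between the groups, with 2 sites of lower H3K4me3 marked. The V16D/H19 points lie mostly to the left of the V16D/CTL points in the upper rows, and no region passed the adjusted threshold.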

How the data were processed

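V16D/CTL and V16D/H19 cells (3 replicates each, named in the sample titles) were profiled for H3K4me3 and H3K27me3 with 75-base single-end reads, and 6 input libraries served as controls. The authors called peaks with MACS2 at default settings, narrow for H3K4me3 and broad for H3K27me3, and deposited for each peak its score, its fold over input (linear ratio) and −log10 p and q values. The authors' deposited DiffBind table, annotated with ChIPseeker on hg38 per the labels, gives concentrations as log2 of the mean normalized count. DiffBind was run with its default analysis, and the normalization is not given in the sources used here. Its fold, p-value and FDR columns hold the authors' own comparison and were not used. Its starts match 0-based peak starts, so 1 was added.

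Members were the rows whose annotation did not start with Promoter. The members and the gene lists were chosen with earlier results of these data known. A site had a peak where at least 1 base was shared. Peaks of the 6 lists were merged where they shared a base. RefSeq starts, tRNA genes and miRNAs are those of GRCh38.p14, and starts on chromosome 8 were not used here, which touches 21 sites. The starts of some genes on other chromosomes were also missing from the list. H3K27me3 folds were averaged by width per region, log2 transformed, centred on each library's median and tested two-sided with limma 3.58.1 in R 4.3.3 with Benjamini-Hochberg adjustment. In simulated data for 10934 regions, 98% of 200 regions changed by 1 log2 unit were called with 6 false calls, and 0 of 200 changed by 0.25. Python 3.11.15 and pandas 2.3.3 were used. Named sites were the 8 largest differences per direction with a peak in 2 libraries, those at the lowest concentration, the 4 strongest per direction, the 4 widest, genes with 3 sites, up to 4 per gene list and members of the 2 identity lists. Sites with a RefSeq start, a tRNA gene, a miRNA, a neighbouring promoter row or H3K27me3 were added after their values were seen. The deposited files hold no depth, and intervals from counts were therefore not given.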

Additional observations from a re-analysis of the deposited data

How the results depend on the processing

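Taking sites with no RefSeq start within 3 kb instead of the annotation gave 522 rows outside chromosome 8. Starts missing from the list can raise that number. The share lower in V16D/H19 was 67.2% among the sites that differed by at least 1 and 77.7% without the lowest values, beside 77.1% for all sites. In alternatives chosen after seeing the data it was 77.1% by centred and 73.7% by uncentred peak fold, and 74.1% without tRNA genes. With peaks that cover at least 50% of a site, the mean difference in called sites between the groups was -27.3 instead of -16.7. The count with peaks in all V16D/CTL and no V16D/H19 libraries was 11 at a −log10 q of at least 5, and 20 to 28 when a replicate was left out. Without each replicate in turn the mean difference lay between -21.5 and -11.0, and the reverse count between 12 and 18. For H3K27me3 the mean difference lay between -4.0 and -2.0, the count with peaks in all V16D/CTL libraries alone between 0 and 1, and that count was 1 with the 50% cover.

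For H3K27me3 folds limma called 0 regions with the replicate block, without centring, with quantile normalization, with the highest peak, with peaks in at least 5 libraries and at the stricter q. Without V16D/CTL replicate 1 it called 1, on an unplaced contig that holds no site, so leaving out a replicate gave 0 to 1. The replicate numbers do not pair the libraries. Deviations of libraries with the same number correlated between -5e-04 and 0.0146, and not every library correlated best with its own number. With the block 911 regions had an unadjusted p under 0.05. At the stricter q only 31 regions were left.

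Sites near the detection limit of peak calling dominate the large differences, and 3 libraries per group limit what can be said of a single weak site.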
